A study of Homo sapiens with 10 samples.

Results

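The genes described here encode 7 dual-specificity phosphatases (DUSP1, DUSP4, DUSP5, DUSP6, DUSP7, DUSP10 and DUSP14) and 3 Sprouty and Spred proteins (SPRY2, SPRY4 and SPRED1), which restrain signalling through the mitogen-activated protein kinases. They were picked by gene symbol, and all 10 were found among the 22003 features of the count table and among the 14799 that were tested. RNA was sequenced from wild-type HaCaT, a line of human keratinocytes that became immortal in culture, whose source the labels give as mucosa. Cells were kept for 24 h with LBP, a polysaccharide-glycoprotein from the goji plant Lycium barbarum, or with vehicle, and were then either exposed to 12 Gy of radiation or not, with RNA taken 3 h after exposure. The 4 groups were non-irradiated vehicle cells (n = 2), non-irradiated LBP cells (n = 2), irradiated vehicle cells (n = 3) and irradiated LBP cells (n = 3). All groups are the same line. The titles call the libraries of a group numbered repeated experiment groups. They do not state that these stem from different cultures. Each p-value therefore reflects the spread of these libraries alone, which may be technical.

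As background, growth factor receptors such as the EGF receptor activate RAS, which starts a chain of kinases that ends in ERK. Active ERK drives transcription of its own inhibitors. Among these, DUSP proteins remove the activating phosphates from ERK and from the related stress kinases JNK and p38, while Sprouty and Spred proteins act upstream, around RAS and RAF. In keratinocytes this pathway is tied to proliferation, migration and wound repair, and the transcripts of its feedback inhibitors are commonly read as a record of recent pathway activity.

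Total counts ran from 31830506 to 62986831 per library. The member genes had between 173 counts (DUSP1, vehicle) and 7207 counts (DUSP14, vehicle) in a library, so none was near the limit of detection. Levels are given as CPM, a library's count relative to its total after trimmed-mean (TMM) scaling, and differences as log2 fold changes ± standard error (SE). The epidermal keratinocyte markers KRT5, KRT14, TP63, DSG3, COL17A1, ITGB4, PKP1 and SFN were all detected, with a summed level of 9257 to 11042 CPM. The 7 mucosal and simple epithelial markers, including KRT8, KRT18 and KRT19, were also all present (5276 to 7051 CPM in sum), while 7 fibroblast markers summed to 4.85 to 7.24 CPM and 6 leukocyte markers to 12.7 to 19.9 CPM, nearly all of it CD68. The fibroblast gene DCN had 0 counts in every library. In bulk RNA, fewer cells expressing a gene and less RNA per cell cannot be told apart.

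On a scale that corrects for gene length, the deposited FPKM, the members spanned a wide range. DUSP14, a small phosphatase without the kinase-docking domain of the classical members, had the highest mean over the 10 libraries, 62.4 FPKM. It was followed by DUSP10, which acts on JNK and p38 (34.4 FPKM), and by DUSP6, the cytoplasmic phosphatase selective for ERK (25.3 FPKM). DUSP7, a close relative of DUSP6, and DUSP4, a nuclear phosphatase, lay next to each other at 16.3 and 14.4 FPKM, with overlapping ranges of 14.7 to 19.4 and 11.9 to 16.2 FPKM. DUSP5, a nuclear phosphatase selective for ERK, and SPRED1, which brings the RAS inhibitor neurofibromin to the membrane, had means of 7.16 and 5.80 FPKM, again with overlapping ranges. The lowest were SPRY2 (3.26 FPKM), DUSP1 (2.72 FPKM) and SPRY4 (2.13 FPKM), whose ranges overlapped.

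**Figure D1:**
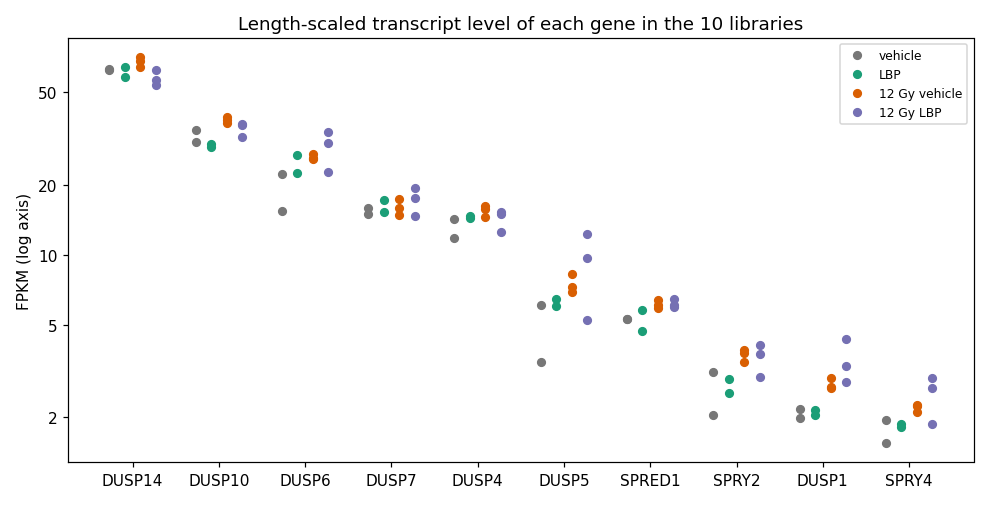
FPKM (log axis) of each gene in the 10 libraries, 1 point per library, coloured by group and ordered by the mean over libraries. DUSP14 lies above all other members in every library, and DUSP5 spans the widest range, from 3.45 to 12.3 FPKM.

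Promoter sequences are shown for 3 members whose RefSeq window lies outside the annotated GENCODE gene body and whose values differ: DUSP1 and SPRY2, among the highest after irradiation, and DUSP7, near 0 throughout. RefSeq (GRCh38.p14) promoter windows were used for 8 of the 10 members, namely DUSP1, DUSP6, DUSP7, DUSP10, DUSP14, SPRY2, SPRY4 and SPRED1. For the other members no window was used, which does not mean that RefSeq holds none. Each line below holds the 250 bases before the start site, read 5′ to 3′ on the gene's strand. The windows are chr5:172771196-172771445 for DUSP1, chr13:80341127-80341376 for SPRY2 and chr3:52056572-52056821 for DUSP7, all on the minus strand. Capitals mark matches to the cAMP response element TGACGTCA, the AP-1 site TGANTCA, the ETS site CCGGAA or the SRF CArG box, searched on both strands.
DUSP1: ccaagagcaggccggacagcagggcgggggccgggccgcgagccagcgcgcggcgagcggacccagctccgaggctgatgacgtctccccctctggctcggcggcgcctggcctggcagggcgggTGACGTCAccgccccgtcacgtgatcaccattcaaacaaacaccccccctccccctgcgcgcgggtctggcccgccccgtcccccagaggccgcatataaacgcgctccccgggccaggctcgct
SPRY2: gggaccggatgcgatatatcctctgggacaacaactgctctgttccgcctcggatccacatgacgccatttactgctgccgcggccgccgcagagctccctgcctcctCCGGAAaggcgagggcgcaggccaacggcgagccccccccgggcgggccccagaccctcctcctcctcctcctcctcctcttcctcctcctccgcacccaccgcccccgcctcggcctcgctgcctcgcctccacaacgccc
DUSP7: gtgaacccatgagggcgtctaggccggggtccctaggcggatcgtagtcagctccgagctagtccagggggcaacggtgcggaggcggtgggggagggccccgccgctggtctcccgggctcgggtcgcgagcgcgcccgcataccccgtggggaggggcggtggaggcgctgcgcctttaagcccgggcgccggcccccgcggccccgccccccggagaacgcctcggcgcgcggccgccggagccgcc
The DUSP1 window holds 1 cAMP response element, which lies at -125 to -118 from the start and reads the same on both strands. The SPRY2 window shown holds 1 ETS site at -142 to -137. RefSeq has 3 windows for SPRY2, and the others, at chr13:80340109-80340358 and chr13:80339660-80339909, lie inside the GENCODE gene body and hold none of the motifs searched. Among all 35116 RefSeq windows of this length, 1.65% hold the cAMP response element, 14.5% the ETS site, 6.57% the AP-1 site and 1.16% the CArG box. The GC box GGGCGG, held by 42.6% of all windows and left unmarked, occurs in all 3, and the antioxidant response element core TGACNNNGC, held by 10.9%, occurs in DUSP1, next to the cAMP response element. The AP-1 site and the CArG box were not matched in these 3 windows, and DUSP7 holds none of the 4. Nor do the windows of DUSP6, DUSP10, DUSP14, SPRY4 and SPRED1 hold any of the 4. The windows of DUSP6, SPRY4 and SPRED1 lie inside the GENCODE gene body, and those of DUSP10 and DUSP14 at least partly. For these genes the bases before the GENCODE start were therefore not all searched. After 12 Gy in vehicle cells, the values of these genes ran from 0.09 (DUSP14) to 0.46 (DUSP6), against 0.41 for DUSP1. The 3 windows shown were picked by these genes' values, so they cannot link a motif to a response. A match is a run of letters and says nothing of binding in these cells.

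The response of the inhibitors to 12 Gy at 3 h was read first in vehicle cells (n = 3 against 2). No member passed at an adjusted p under 0.05 by edgeR's quasi-likelihood test, where 0.439% of all genes passed, and none passed with DESeq2. All 10 values were nevertheless positive, against 50.6% of all genes, with a median of 0.28 against 0.0019 over all genes. At an unadjusted p under 0.05, 6 of the 10 were higher and none lower, against 3.32% of all genes higher and 3.59% lower. In 8 of the 10 the groups did not overlap and the irradiated libraries were higher, against 13.8% of all genes (13.9% in the other direction). The members were chosen with earlier results of these libraries known, so these counts describe them and support nothing further.

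Among the nuclear phosphatases, DUSP1, an immediate early gene whose product acts on p38, JNK and ERK, had 4.55 and 4.98 CPM in vehicle and 6.07, 6.22 and 6.79 CPM in irradiated vehicle libraries. Every irradiated library lay above both others. The difference was 0.41 ± 0.17, a 1.33-fold higher level with a 95% interval of 1.03 to 1.73 (adjusted p = 0.69, edgeR). DUSP5 had 9.71 and 17.1 CPM in vehicle and 19.2, 20.8 and 23.4 CPM after irradiation, a difference of 0.65 ± 0.30 (adjusted p = 0.72, edgeR). Again the groups were separate, but the vehicle libraries lay far apart. DUSP4 had 74.7 and 89.566 CPM in vehicle and 89.593, 101 and 102 CPM after irradiation, a difference of 0.25 ± 0.11, with the nearest libraries of both groups almost level.

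Among the cytoplasmic phosphatases, DUSP6 had 61.6 and 88.1 CPM in vehicle and 99.9, 102 and 107 CPM in irradiated vehicle libraries. The difference was 0.46 ± 0.18 (fold 1.37, 95% interval 1.05 to 1.79, adjusted p = 0.63, edgeR). The 3 irradiated libraries lay close together while the vehicle pair lay far apart. DUSP7 differed by 0.06 ± 0.11 and DUSP14 by 0.09 ± 0.09, both with overlapping groups. DUSP10, the JNK and p38 phosphatase, had 88.3 and 101 CPM in vehicle and 109, 110 and 115 CPM after irradiation, a difference of 0.24 ± 0.09, and had the smallest adjusted p of the 10 members, 0.60.

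The Sprouty and Spred genes had values of the same sign. SPRY2 had 5.79 and 8.52 CPM in vehicle and 9.04, 10.5 and 10.6 CPM in irradiated vehicle libraries, a difference of 0.48 ± 0.18 (adjusted p = 0.61, edgeR). SPRY4 had 8.50 and 10.8 CPM in vehicle and 12.1, 11.6 and 12.5 CPM after irradiation, a difference of 0.32 ± 0.18. SPRED1 was close in the vehicle pair, at 43.9 and 43.7 CPM, and had 48.1, 53.4 and 50.3 CPM after irradiation, a difference of 0.21 ± 0.09. In each of the 3 genes, all irradiated libraries lay above both vehicle libraries. Vehicle replicate 1 was the lower of its pair for 9 of the 10 members: without it the median difference was 0.18 and no member had an unadjusted p under 0.05, and without vehicle replicate 2 the median was 0.44. Without irradiated vehicle replicate 3 no member had an unadjusted p under 0.05 either, at a median of 0.25.

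**Figure D2:**
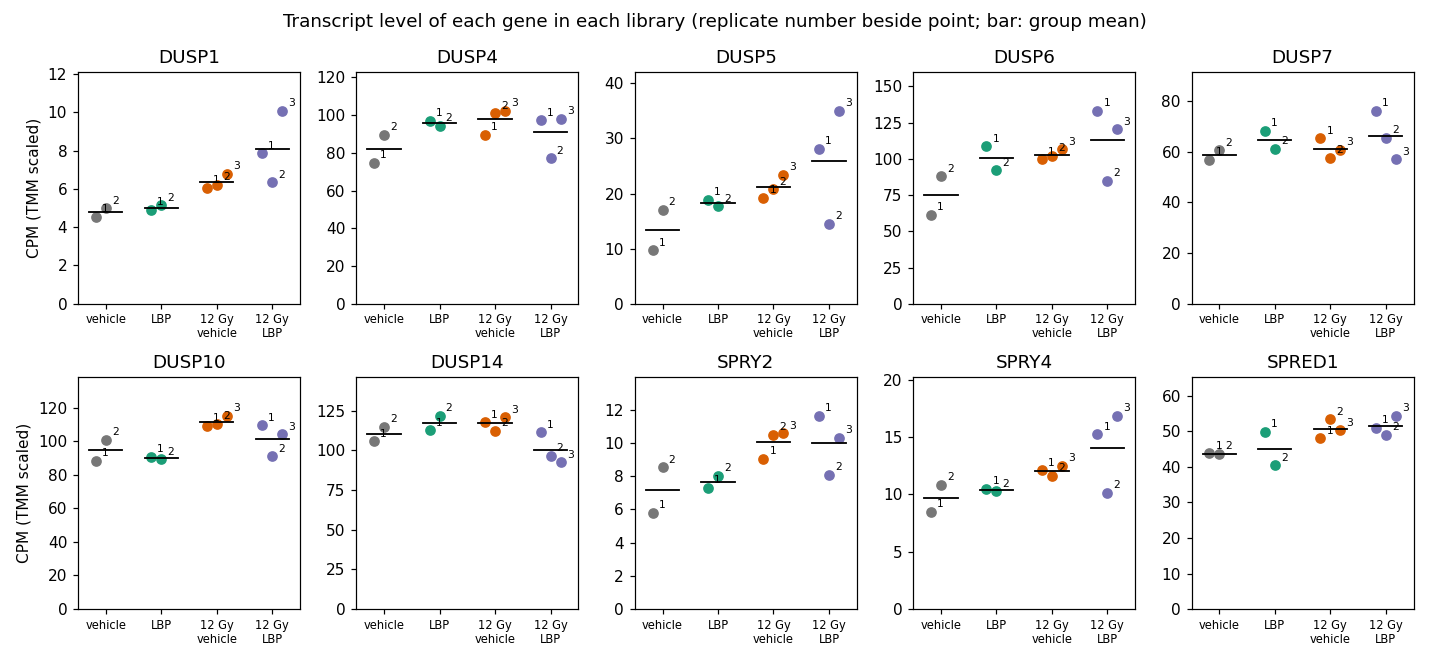
CPM of each gene in each library, with the group mean as a bar and the replicate number beside each point. In irradiated vehicle cells the 3 libraries lie close together and, for 8 genes, above both vehicle libraries, while the irradiated LBP libraries spread widely, with replicate 2 lowest for DUSP5 at 14.5 CPM.

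The comparison of irradiated with non-irradiated LBP cells asked what the same exposure did after the pretreatment (n = 3 against 2). No member passed by edgeR (0.142% of all genes did), and 1 member, DUSP1, passed with DESeq2 (0.70 ± 0.19, adjusted p = 0.024). DUSP1 had 4.90 and 5.15 CPM in LBP and 7.86, 6.35 and 10.1 CPM in irradiated LBP libraries, a difference of 0.69 ± 0.17 (fold 1.62, 95% interval 1.24 to 2.10, adjusted p = 0.20, edgeR). All 3 irradiated libraries lay above both others. Without irradiated LBP replicate 2, DUSP1 passed in edgeR as well, at 0.84 ± 0.15 (adjusted p = 0.049). Of the 10 members, 8 had positive values (50.4% of all genes), and the median was 0.18 against 0.0021. At an unadjusted p under 0.05, 2 were higher (6.62% of all genes) and 1 lower (6.91%). Groups were separate and higher for 3 members (14.0% of all genes) and separate and lower for 1 (14.0%).

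SPRY4 had 10.5 and 10.3 CPM in LBP and 15.2, 10.1 and 16.8 CPM in irradiated LBP libraries, a difference of 0.44 ± 0.18 (adjusted p = 0.32, edgeR). Replicate 2 of the irradiated group lay below both non-irradiated libraries and the others well above. SPRY2, at 7.28 and 8.01 CPM against 11.6, 8.07 and 10.3 CPM, differed by 0.39 ± 0.18, with the nearest libraries of both groups almost level. DUSP5 had 18.9 and 17.7 CPM in LBP and 28.1, 14.5 and 35.1 CPM after irradiation. Its difference of 0.51 ± 0.30 had a 95% interval from -0.14 to 1.15, and the irradiated libraries lay on both sides of the LBP pair. DUSP6, at 109 and 92.0 CPM against 133, 84.7 and 120.5 CPM, differed by 0.17 ± 0.17.

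DUSP10 and SPRED1 had differences of 0.17 ± 0.09 and 0.19 ± 0.09 after irradiation of LBP cells, near their values in vehicle cells. DUSP4 and DUSP7 stood at -0.07 ± 0.11 and 0.04 ± 0.11. DUSP14 went the other way: 113 and 122 CPM in LBP against 111, 96.5 and 92.6 CPM in irradiated LBP libraries, a difference of -0.23 ± 0.09 (adjusted p = 0.30, edgeR), with every irradiated library below both others. The median over the members moved to 0.32 without LBP replicate 1 and to 0.10 without LBP replicate 2, and it was 0.29 without irradiated LBP replicate 2.

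The mean of both radiation comparisons, a contrast added after the data were seen, drew on all 10 libraries. By edgeR no member passed (0.561% of all genes did), and 7 of 10 were higher at an unadjusted p under 0.05 (6.06% of all genes) and none lower (5.41%). This count was 4 without vehicle replicate 1, 4 without LBP replicate 2 and 4 with a replicate block. DUSP1 had the smallest adjusted p, with a mean difference of 0.55 ± 0.12 (fold 1.47, 95% interval 1.22 to 1.77, adjusted p = 0.094, edgeR). It was the only member whose 6 irradiated libraries, 6.07 to 10.1 CPM, all lay above the 4 non-irradiated ones, 4.55 to 5.15 CPM, a separation in this direction found in 0.878% of all genes and in the other in 1.21%. Of the 10 values 9 were positive (50.3% of all genes). The others whose whole 95% interval was positive were DUSP5 (0.58 ± 0.21), SPRY2 (0.44 ± 0.13), SPRY4 (0.38 ± 0.13), DUSP6 (0.31 ± 0.12), DUSP10 (0.20 ± 0.06) and SPRED1 (0.20 ± 0.07). DUSP4 and DUSP7 had 0.09 ± 0.08 and 0.05 ± 0.08, and DUSP14 had -0.07 ± 0.06.

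Calls on this mean depended on the test and on 1 library. DESeq2 called DUSP1 (0.55 ± 0.13, adjusted p = 0.0043) and SPRY2 (0.44 ± 0.13, adjusted p = 0.0499), and edgeR called DUSP1 with no filter on low counts (adjusted p = 0.043). Without irradiated LBP replicate 2, edgeR called DUSP1 (0.63 ± 0.10, adjusted p = 0.013), SPRY4 (0.47 ± 0.09, adjusted p = 0.024) and DUSP5 (0.72 ± 0.14, adjusted p = 0.035). Without any of the other 9 libraries it called none.

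**Figure D3:**
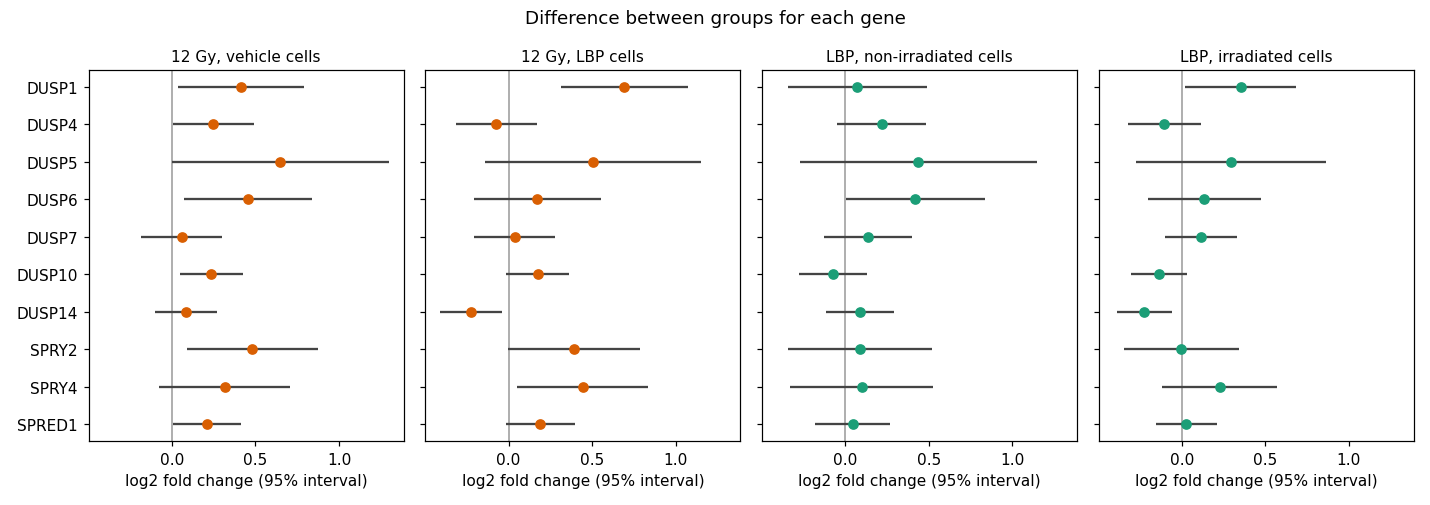
Log2 fold change (x axis) of each gene with its 95% interval in the 4 comparisons between groups. Values lie to the right of 0 for all 10 genes after 12 Gy in vehicle cells, and DUSP1 after 12 Gy in LBP cells (0.69) lies farthest from 0 relative to its interval.

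LBP in non-irradiated cells was compared with vehicle in 2 against 2 libraries. No member passed by edgeR (0.804% of all genes did) or DESeq2, and DUSP6 alone had an unadjusted p under 0.05 (6.97% of all genes were higher at that level and 6.56% lower). DUSP6 differed by 0.42 ± 0.19 (adjusted p = 0.36, edgeR), from 61.6 and 88.1 CPM to 109 and 92.0 CPM. DUSP5, at 0.44 ± 0.32, DUSP4, at 0.22 ± 0.12, and DUSP7, at 0.14 ± 0.12, also had both LBP libraries above both vehicle libraries, which makes 4 of 10 members (23.2% of all genes; 22.3% were separate and lower). The values of DUSP14, SPRY4, SPRY2, DUSP1 and SPRED1 ran from 0.05 to 0.10, and that of DUSP10 was -0.07 ± 0.09. Of the 10 values 9 were positive (52.2% of all genes), with a median of 0.094 against 0.010 over all genes. It rested on the vehicle pair: without vehicle replicate 1 it was 0.028, with DUSP6 at 0.18, and without vehicle replicate 2 it was 0.24, with DUSP6 at 0.71.

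LBP in irradiated cells was compared with vehicle in 3 against 3 libraries. Of the 4 comparisons between groups, it had the most calls over all genes (4.36%). No member passed, by edgeR or DESeq2. At an unadjusted p under 0.05, DUSP1 was higher (11.7% of all genes) and DUSP14 lower (9.98%). DUSP14 had 118, 112 and 121 CPM in irradiated vehicle and 111, 96.5 and 92.6 CPM in irradiated LBP libraries, a difference of -0.22 ± 0.08 (fold 0.856, 95% interval 0.763 to 0.961, adjusted p = 0.12, edgeR). It was the only member with separate groups, all lower with LBP (13.6% of all genes were so, and 13.9% separate and higher), and it passed without irradiated LBP replicate 1, at -0.31 ± 0.07 (adjusted p = 0.046). DUSP1 differed by 0.35 ± 0.15 (adjusted p = 0.20, edgeR), with replicate 2 of the irradiated LBP group, at 6.35 CPM, inside the range of the vehicle group. Without irradiated LBP replicate 3 the DUSP1 difference was 0.16 (adjusted p = 0.53, edgeR).

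In the same comparison the keratinocyte markers TP63 (0.41 ± 0.08) and DSG3 (0.43 ± 0.08) and the epithelial marker MUC1 (0.58 ± 0.10) rose, while KRT18 (-0.36 ± 0.08) and the melanocyte marker MITF (-0.46 ± 0.11) fell. MITF was 1 of the 2 tested melanocyte markers, and the other had a positive value. The part of all these markers in the values of the members was not tested.

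The remaining members stayed near 0 or had wide intervals with LBP in irradiated cells. DUSP5 and SPRY4 had 0.30 ± 0.26 and 0.23 ± 0.16, DUSP6 0.14 ± 0.16 and DUSP7 0.12 ± 0.10. DUSP10 and DUSP4 had -0.14 ± 0.08 and -0.10 ± 0.10. SPRED1 had 0.03 ± 0.08 and SPRY2 -0.0022 ± 0.16, and the 95% interval of SPRY2 was -0.35 to 0.34. Of the 10 values 6 were positive (51.1% of all genes), with a median of 0.07 against 0.0051. The median was -0.0022 without irradiated LBP replicate 1, 0.0010 without replicate 3 and 0.13 without replicate 2 of that group.

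The difference between both LBP effects, the interaction, was called for none of the members by edgeR (0.0135% of all genes were called) or DESeq2. DUSP14, at -0.31 ± 0.12, was the 1 member with an unadjusted p under 0.05 (4.26% of all genes were lower at that level and 3.93% higher; adjusted p = 0.60, edgeR), and DUSP4 had -0.32 ± 0.16. Of the 10 values 2 were positive (50.8% of all genes). In the mean of both LBP comparisons, also added after the data were seen, DUSP6 had 0.28 ± 0.12 (adjusted p = 0.20, edgeR) and was the 1 member higher at an unadjusted p under 0.05 (12.6% of all genes, with 10.6% lower). Of the 10 values 8 were positive (51.7% of all genes), and for no member were all LBP libraries above (4.55%) or below (3.26%) all vehicle libraries. No member passed by edgeR or DESeq2, where 6.93% of all genes did by edgeR, and DUSP6 passed without irradiated LBP replicate 2 (0.36 ± 0.10, adjusted p = 0.041).

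The spread between libraries of a group was itself large for several members. The SD of log2 CPM within groups was 0.46 for DUSP5, larger than for 99.1% of the 3983 genes within 2-fold of its level. It was 0.26 for DUSP6 (98.5% of genes near its level), 0.25 for SPRY4 (93.1%), 0.24 for SPRY2 (89.2%) and 0.20 for DUSP1 (71.8%). DUSP4 and DUSP7 had smaller SDs of 0.15 and 0.14, yet larger than for 89.9% and 85.1% of genes near their level. DUSP10, DUSP14 and SPRED1 had SDs of 0.10, 0.099 and 0.11, each larger than for 59.4% to 61.5% of genes near their level, and the median over all tested genes was 0.13.

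This spread was shared by library. In irradiated LBP replicate 2 all 10 members lay below their group mean, by a median of -0.26 on the log2 scale and by -0.74 for DUSP5. In vehicle replicate 1, 9 of 10 lay below, by a median of -0.11, SPRED1 being the exception. By contrast 50.3% of all tested genes lay above their group mean in the former and 50.1% in the latter. Replicates 1 and 3 of the irradiated LBP group each had 8 of 10 members above the mean. In a pair the deviations mirror each other, so vehicle replicate 2, with the most counts (62986831), had 9 of 10 above. Irradiated LBP replicate 2 had the fewest counts of the 10 libraries (31830506) and vehicle replicate 1 the second fewest (38107258). Irradiated vehicle replicate 1 (39999300) had 7 members below. LBP replicate 1 (40673084), with fewer counts than replicate 2 (44495984), had 7 above. The part of depth in this pattern was not tested.

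**Figure D4:**
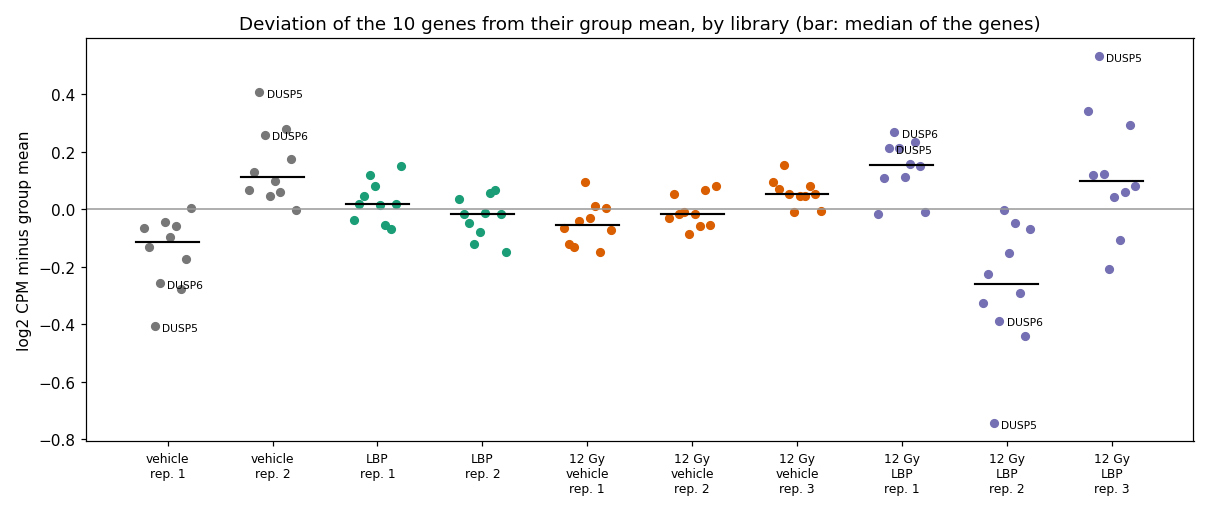
Deviation of each of the 10 genes from its group mean (log2 CPM, y axis) in each library, with the median of the genes as a bar. All 10 points lie below 0 in irradiated LBP replicate 2 (median -0.26), and DUSP5 has the largest deviations of both signs.

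Some other gene lists deviated by library as well, in these libraries and in others. Of 20 ERK-responsive transcription genes, such as EGR1, FOS and FOSL1, 19 lay below the group mean in irradiated LBP replicate 2 (median -0.37) and 17 in vehicle replicate 1 (median -0.17). All 7 tested EGF family ligands did so in both libraries. In irradiated vehicle replicate 1, 17 of the 20 ERK-responsive genes (median -0.070) and 6 of the 7 ligands (median -0.16) also lay below. In LBP replicate 2 these numbers were 16 (median -0.078) and 7 (median -0.14). Of the 10 members, 7 lay below in each of these libraries, at medians of -0.05 and -0.02. Of the 24 genes of the RAS-ERK cascade itself, from receptor to kinase, 13 lay below in irradiated LBP replicate 2 and 8 in vehicle replicate 1. For the 21 genes of the JNK and p38 cascades these numbers were 11 and 13. For the 18 further feedback regulators described below they were 9 and 7, with medians of 7.0e-04 and 0.047.

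The profile of each member over the 10 libraries was compared with that of others by the root mean square difference of log2 CPM, each gene centred on its mean. Among the members DUSP10 and SPRED1 had the smallest difference (0.12), followed by DUSP4 with DUSP10 (0.12) and DUSP1 with SPRY4 (0.13), and DUSP5 and DUSP14 had the largest (0.51). The measure is also small between genes that vary little. DUSP10 and SPRED1, with within-group SDs of 0.10 and 0.11, need not share a pattern. Outside the members, among 10148 genes, IRF2BPL, FGFRL1 and KLF4 were nearest to DUSP1, at 0.095 to 0.11, against 0.33 for a flat profile. GADD45A, IL1A and MAFF were nearest to DUSP5 (0.12 to 0.16, flat profile 0.48), MAFK, TLNRD1 and PLK3 to DUSP6 (0.11 for each, flat profile 0.29), and PIM1, PLAU and CBARP to SPRY4 (0.076 to 0.11, flat profile 0.28). These genes were the nearest of many and are named as a description.

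Of 18 further feedback regulators of the pathway, among them DUSP2, DUSP8, DUSP16, SPRY1, SPRED2, ERRFI1 and NF1, 1 passed in any of the comparisons. This was with LBP in irradiated cells, where 4.36% of all genes passed. SPRY1, another Sprouty gene, fell with LBP in irradiated cells from 1.99 ± 0.063 (SD, n = 3) to 0.784 ± 0.20 (SD, n = 3) CPM, a change of -1.35 ± 0.22 (adjusted p = 0.0072, edgeR). Its irradiated vehicle libraries had 1.95 to 2.06 CPM and its irradiated LBP libraries 0.568 to 0.952 CPM. Without irradiation SPRY1 had 2.05 ± 0.26 (SD, n = 2) CPM in vehicle and 1.26 ± 0.12 (SD, n = 2) CPM in LBP cells, a difference of -0.70 ± 0.26 (adjusted p = 0.27, edgeR). The call held in all 18 alternative settings, with adjusted p from 2.4e-04 to 0.036 and values from -1.53 to -0.57, the latter with limma on log2(FPKM + 1). After 12 Gy in vehicle cells 8 of the 18 values were positive (50.6% of all genes), with a median of -0.0086 against 0.0019 over all genes. DUSP8, another phosphatase of JNK and p38, had 1.14 ± 0.24 there (adjusted p = 0.089, edgeR), which did not pass. CBL, with the next smallest p, had -0.20 ± 0.09. With LBP in irradiated cells DUSP8 had -0.68 ± 0.21 (adjusted p = 0.0875, edgeR), which did not pass either.

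Upstream of ERK, 1 gene of the 24 in the RAS-ERK cascade passed when LBP preceded irradiation, and it rose, against 4.36% of all genes called in that comparison. EGFR, the receptor itself, changed by 0.41 ± 0.09, from 777 ± 42.5 (SD, n = 3) to 1035 ± 82.6 (SD, n = 3) CPM (adjusted p = 0.028, edgeR). Its call was lost without irradiated vehicle replicate 1, 2 or 3 and without irradiated LBP replicate 1. No gene of this list passed after 12 Gy in either background, or with LBP alone. Of the 7 tested EGF family ligands, EPGN rose with LBP in non-irradiated cells (2.26 ± 0.22, adjusted p = 2.3e-04, edgeR), and EPGN (2.00 ± 0.17) and EREG (1.36 ± 0.34) rose in irradiated cells. Over all genes, 0.804% passed in the former comparison and 4.36% in the latter. EPGN kept its call in all 18 alternatives, and EREG lost it in 12. The list's median was 0.85 without and 0.58 with irradiation, against 0.010 and 0.0051 over all genes.

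Over all genes, 4.36% passed with LBP in irradiated cells, at a median of 0.0051. Downstream, 4 of 20 ERK-responsive transcription genes rose in that comparison, and 0 fell (median 0.46). Among them were EGR1 (1.55 ± 0.33), FOSB (1.66 ± 0.34) and KLF10 (0.81 ± 0.17), all early response transcription factors. EGR1, FOSB and KLF10 each lost their call in 6 of the 18 alternatives, including without each irradiated vehicle library. After 12 Gy none of the 20 passed, with or without LBP, at medians of 0.37 and 0.31 (0.0021 and 0.0019 over all genes). None of the 21 JNK and p38 cascade genes and none of the 6 genes of AU-rich mRNA decay passed in the 4 comparisons or the interaction by edgeR. At an unadjusted p under 0.05 were 1 to 5 of the 21, with 5 for LBP alone (6.97% of all genes higher and 6.56% lower). Of the 6 decay genes up to 3 were, with 3 for LBP in irradiated cells (11.7% of all genes higher and 9.98% lower). MAP3K1, a kinase at the top of the JNK cascade, had the smallest p of its list with LBP alone, at -0.37 ± 0.10 (adjusted p = 0.13, edgeR).

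In the mean of both LBP comparisons, where 6.93% of all genes passed, more genes of these lists passed by edgeR. SPRY1 fell by 1.03 on the log2 scale (SE 0.17, adjusted p = 0.0056, edgeR), the only 1 of the 18 further feedback regulators to pass. EGFR (0.31 ± 0.07) and its adaptor SHC1 (0.21 ± 0.05) rose among the 24 cascade genes, and AREG, EREG and EPGN among the 7 ligands. Of the 20 ERK-responsive genes 7 rose, among them EGR1, EGR3, FOSL1, FOSB, IER2 and KLF10. Of the 21 JNK and p38 genes MAP2K6 rose (0.92 ± 0.22) while MAPK14 (-0.20 ± 0.05) and TAB2 (-0.21 ± 0.06) fell, and of the 6 decay genes ELAVL1, which stabilises AU-rich transcripts, fell (-0.19 ± 0.05).

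In GENCODE v29 on GRCh38 the members are protein-coding genes on separate chromosomes, apart from DUSP1 and SPRY4. Those 2 share the minus strand of chr5, with DUSP1 (ENSG00000120129.5) at chr5:172768090-172771195 and SPRY4 (ENSG00000187678.9) at chr5:142310427-142326455. The other genes with the widest spread or highest level are SPRY2 (ENSG00000136158.11, chr13:80335976-80340951, minus strand), DUSP14 (ENSG00000276023.4, chr17:37489831-37513501, plus), DUSP5 (ENSG00000138166.5, chr10:110497838-110511544, plus) and DUSP6 (ENSG00000139318.7, chr12:89347232-89353271, minus). DUSP1, DUSP6 and SPRY4 overlap genes annotated on the opposite strand. The strand setting of the counting is not stated, so there reads of both strands cannot be told apart.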

How the data were processed

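Groups were taken from the sample titles. The submitters' processing notes name HISAT2 and GRCh38; for the counting tool, strand setting and annotation no source used here gives a name. Gene counts, as deposited, are whole numbers, and the FPKM table deposited by the authors scales them by gene length and depth. Of counts from 1 to 10, 59.7% were even, and how read mates were counted is not stated, so counts may not all be independent fragments.

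The test was edgeR 4.0.16 (R 4.3.3; filterByExpr with a minimum count of 10, TMM, glmQLFit and glmQLFTest). The fit had 1 mean per group over all 10 libraries and 6 residual degrees of freedom, with Benjamini-Hochberg adjustment over 14799 genes and calls at 0.05. Every SE and 95% interval comes from this fit unless DESeq2 or a left-out library or other setting is named, whose SE is from its own fit, and a group difference larger than the spread between libraries is one that passed. The script was tested on simulated data. DESeq2 1.42.0, limma 3.58.1 on log2(FPKM + 1) and log2(FPKM + 0.1), other scalings, no filter, only the compared groups, a replicate block and leaving out each library were alternatives. The contrasts averaged over a factor were added after the data were seen. The text names all members, the pathway genes that passed or had one of the 2 smallest p-values in their list, and for 4 members the 3 genes nearest in profile among those with a mean log2 CPM of at least 1. Some genes of the lists are counted but not reported here by name. The members and lists were chosen with earlier results of these data known. Libraries of a group were not duplicates of each other (chi-square per degree of freedom 16.9 to 26.7).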

Additional observations from a re-analysis of the deposited data

How the results depend on the processing

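Of 1230 values of the members under alternatives, 1170 kept their direction and side of the threshold, 50 changed sign, 10 newly passed and 0 ceased to pass. In LBP cells after 12 Gy, DESeq2 called 1 member, and in the mean 12 Gy contrast DESeq2 called 2 and edgeR with no filter 1. Leaving out 1 library gave 0 to 1 called members with LBP in irradiated cells, 0 to 1 after 12 Gy in LBP cells, 0 to 3 in the mean 12 Gy contrast and 0 to 1 in the mean LBP contrast. The sign changed when 1 library was left out, with ranges as follows. With LBP alone these were SPRED1 -0.12 to 0.19, SPRY2 -0.17 to 0.40, SPRY4 -0.070 to 0.29 and DUSP10 -0.18 to 0.029. With LBP in irradiated cells they were SPRY2 -0.13 to 0.13, SPRED1 -0.015 to 0.065, DUSP6 -0.0041 to 0.30 and DUSP7 -3.2e-04 to 0.21. After 12 Gy in LBP cells they were DUSP7 -0.072 to 0.14 and DUSP4 -0.13 to 0.030. In the interaction they were SPRED1 -0.17 to 0.14, DUSP7 -0.13 to 0.080, DUSP10 -0.17 to 0.034, DUSP5 -0.63 to 0.20, SPRY2 -0.41 to 0.16 and SPRY4 -0.070 to 0.31. In the mean 12 Gy contrast it was DUSP7 -0.0052 to 0.10, and in the mean LBP contrast SPRED1 -0.051 to 0.10, DUSP4 -0.014 to 0.12 and SPRY2 -0.088 to 0.20.

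With limma on log2(FPKM + 1) and log2(FPKM + 0.1), the values that changed sign were, with LBP alone, DUSP14 -0.034 and -0.035 and SPRED1 -0.019 and -0.023. In the interaction they were DUSP7 0.019 and 0.020, DUSP10 0.0029 and 0.0034 and SPRED1 0.032 and 0.038. In the mean 12 Gy contrast DUSP14 had 0.0087 and 0.0088, and in the mean LBP contrast SPRED1 had -0.0032 and -0.0044. With upper quartile scaling SPRED1 had 0.0024 in the interaction. The cause was not tested.

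Deviations of same-numbered replicates had low correlations over all tested genes (1 of 13 pairs had a correlation over 0.1, range -0.13 to 0.11). In groups of 2 libraries the deviations mirror each other, so these correlations cannot decide whether the numbers pair the libraries. With a replicate block 0 members were called in every comparison, SPRY2 had 0.0067 with LBP in irradiated cells, and 56, 148, 813 and 31 genes in all passed in vehicle cells after 12 Gy, with LBP alone, with LBP in irradiated cells and in LBP cells after 12 Gy. In that order edgeR called 65, 119, 645 and 21 genes, DESeq2 129, 374, 1228 and 184, limma on log2(FPKM + 1) 37, 62, 313 and 10, and edgeR on only the compared groups 109, 278, 409 and 10. For the interaction these were 2 by edgeR and 16 by DESeq2, and for the mean 12 Gy contrast 83 and 211. A fit on only the compared groups was not run for the interaction and the means. With 2 or 3 libraries a group, and SEs of up to 0.32 for DUSP5 in the comparisons between groups, most member differences had 95% intervals that include 0.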
